A study of Mus musculus with 8 samples.

Results

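The serpins and the plasminogen activator genes of mouse keratinocytes (KCs) were examined at the RNA level. Protein coding genes whose name begins with Serpin were taken, together with the plasminogen activators Plau and Plat and the receptor gene Plaur, whatever their level. The genes reported number 63 (60 serpins and 3 others) of the 41457 genes in the tables, of which 21949 were protein coding. The KCs were grown from the tail skin of untreated adult wild type C57BL/6 mice (C57BL/6J in the text of the study) in a serum-free KC medium with a low calcium concentration, for 1 week (4 samples) or for 3 weeks (4 samples). The replicates were described as independent experiments, and how many animals entered each of them was not given in the sources used here. Both groups had the same genotype and medium, so that time in culture, which includes the passages made in it, was the only labelled difference.

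Serpins trap the protease that cleaves them in a covalent complex, and a few members have lost this activity and serve as hormone carriers or chaperones. The plasminogen activators uPA (Plau) and tPA (Plat) turn plasminogen into the broad protease plasmin, uPA mostly while bound to its receptor uPAR (Plaur) on the cell surface, and serpins such as PAI-2 (Serpinb2) inhibit them. Basal KCs at wound edges are known to switch on this system when they migrate. Clade B serpins, which lack a classical signal peptide and mostly stay inside the cell, form gene clusters and include several genes of stratified epithelia.

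Levels are given as RPKM, the reads on the exons of a gene per length of exon and per number of mapped reads, and are followed by the log2 fold change of 3 weeks over 1 week with its standard error. Fold changes and adjusted p-values are from edgeR's quasi-likelihood test on the exon reads, adjusted by Benjamini-Hochberg over all 12590 genes with enough reads, with a threshold of 0.05. The exon reads numbered 13896807 to 20026084 per sample at 1 week and 14096649 to 18127283 at 3 weeks. Among the 3-week samples, replicate 4 had the fewest exon reads and the largest intronic share (2.38%), and it stood apart from the others in many of the genes below, so that the results it moved most are given with and without it. The median fold change of all tested genes was 0.03 on the log2 scale in edgeR and -0.16 on the log2(RPKM + 0.1) scale, on which falls read larger.

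Of the 63 genes, 22 had enough reads to be tested, and 9 of these (40.9%) differed between 1 and 3 weeks, compared with 32.8% of all tested genes. With at least 10 reads required in every sample, 6 of 19 (31.6%) differed, beside 32.4% of all genes tested in that fit. In the main test 6 genes were higher after 3 weeks, namely Serpini1, Serpinb9b, Serpinb6b, Plat, Serpine2 and Plau, where the share of all tested genes was 15.7%. The 3 lower genes were Serpinb6c, Serpina3i and Serpinb2, where the share of all tested genes was 17%. Of all calls 48.0% were higher after 3 weeks in edgeR, and 29.8% by limma on log2(RPKM + 0.1). The median log2 fold change of the 22 genes was 0.53. The RPKM values of the 2 groups did not overlap in 5 genes that were higher and 3 that were lower after 3 weeks (36.4% of the 22), against 10.8% and 26.2% of all tested genes, 37% together. As these are bulk samples, fewer cells of a type and less RNA per cell cannot be told apart.

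**Figure D1:**
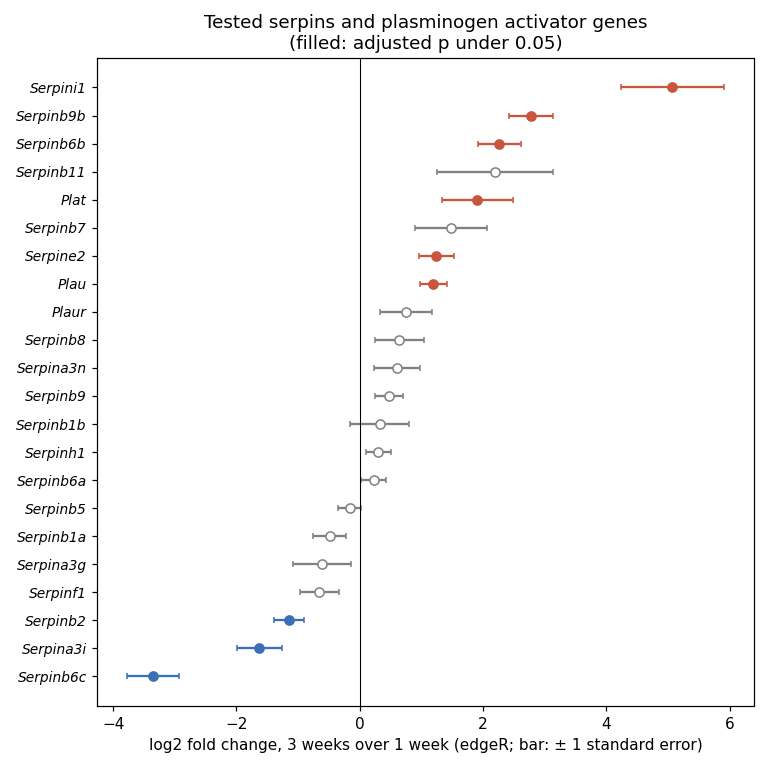
Log2 fold change of 3 weeks over 1 week (horizontal axis) for the 22 tested serpin and plasminogen activator genes, with bars of 1 standard error from edgeR. Filled points mark the 9 called genes, 6 to the right of 0 and 3 to the left, from 5.07 in Serpini1 to -3.35 in Serpinb6c.

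Plau, the gene for urokinase (chr14:20836660-20843385), was the dominant activator at both times and rose. Its RPKM values were, in replicates 1 to 4, 241, 302, 375 and 237 for 1 week and 764, 680, 426 and 500 for 3 weeks, and every 3-week sample lay above every 1-week sample. The means were 289 ± 64.8 and 592 ± 156 RPKM (SD, n = 4). On the log2 scale the rise was 1.19 ± 0.22, or 2.28-fold (edgeR, adjusted p = 0.00364). By mean RPKM over all 41457 genes Plau moved from rank 172 to rank 70.

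Plat, the gene for tPA (chr8:22757727-22782844), was low throughout. It was measured at 1.59, 0.793, 1.05 and 0.69 RPKM at 1 week and at 1.44, 2.16, 1.86 and 8.68 RPKM at 3 weeks. The groups overlapped, and 3-week replicate 4 lay far above the other 7 samples. The log2 fold change was 1.91 ± 0.57 (edgeR, adjusted p = 0.0320) with all samples and 1.00 without 3-week replicate 4 (adjusted p = 0.0353). The call was lost when 1-week replicate 2, 3 or 4 was left out, with adjusted p-values of 0.0829, 0.0719 and 0.0861 in edgeR. Plau RNA exceeded that of Plat, per length, 152- to 381-fold at 1 week and 57.6- to 532-fold at 3 weeks.

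The receptor gene Plaur (chr7:24462484-24475968) was measured at 27.8, 35.5, 26.5 and 22.3 RPKM at 1 week and at 60.3, 62.8, 32.3 and 12.7 RPKM at 3 weeks. The 3-week samples spanned both sides of the 1-week range, with replicates 1 and 2 above it and replicate 4 below it. The log2 fold change of 0.75 ± 0.42 did not pass the test (edgeR, adjusted p = 0.204). Without 3-week replicate 4 it was 1.05 and passed (adjusted p = 0.00652). Plaur passed in no other fit that left out a sample, with edgeR adjusted p-values up to 0.424.

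Serpinb2 (PAI-2, chr1:107511423-107535478), which inhibits urokinase and is retained in the cell to a large part, fell. It was the most abundant of the serpins reported at both times, with RPKM values of 982, 852, 751 and 669 at 1 week and 349, 454, 302 and 209 at 3 weeks. The groups did not overlap, and the lowest value was again that of 3-week replicate 4. The means were 813 ± 135 and 329 ± 102 RPKM (SD, n = 4), and the log2 fold change was -1.15 ± 0.25, a 2.21-fold fall (edgeR, adjusted p = 0.00764). It lay between -1.31 and -0.97 whichever sample was left out. The 150 bases before the RefSeq start of Serpinb2 (GRCm38.p6, chr1:107511273-107511422, + strand) are shown because this gene supplied most of the RNA of the serpins reported at 1 week. The capitals mark TATAAA, 29 bases before the start, and TGAATCA, 94 bases before it. The latter is a match to the pattern TGANTCA, in which N is any base.
Serpinb2: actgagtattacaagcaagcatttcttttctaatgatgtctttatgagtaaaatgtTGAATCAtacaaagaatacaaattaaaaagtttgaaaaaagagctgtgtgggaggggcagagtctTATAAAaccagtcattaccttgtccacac
Searched on both strands of the same 150-base window, TATAAA occurred in 7.57% of 32851 RefSeq promoters and TGANTCA, which reads alike on both strands, in 4.24%. Of the 63 genes 53 had a promoter in this set, and 7 of them held TGANTCA, namely Plaur, Serpinb2, Serpinb5, Serpinb7, Serpinb8, Serpinb11 and Serpinb12. Such a match describes the letters and is not evidence of a bound factor.

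The protease and this inhibitor thus moved in opposite directions. The RPKM of Plau divided by that of Serpinb2 was 0.245, 0.355, 0.500 and 0.355 in the 1-week samples and 2.19, 1.498, 1.41 and 2.39 in the 3-week samples. Every 1-week ratio lay under 1 and every 3-week ratio above it. The ratio combines the fold changes of both genes and was not tested separately.

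**Figure D2:**
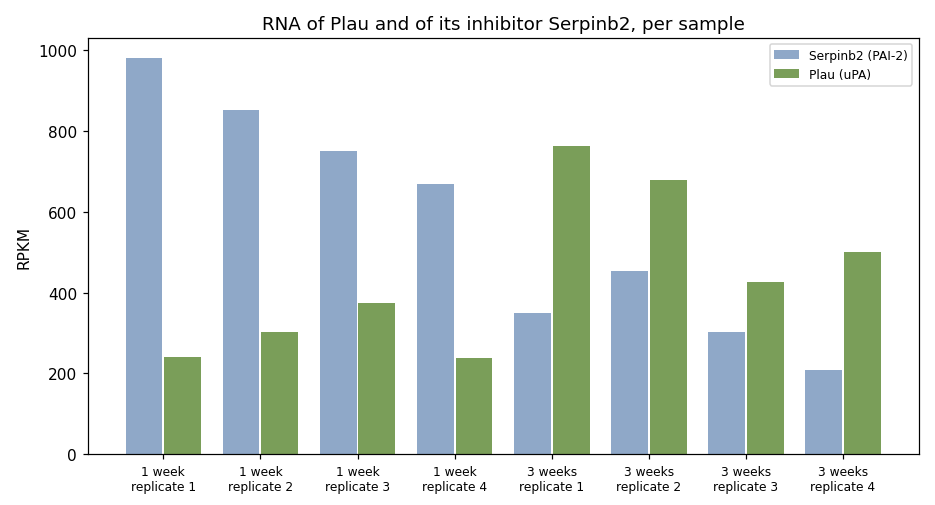
RPKM (vertical axis) of Serpinb2 and of Plau in each of the 8 samples, as bars from 0. At 1 week Serpinb2 (669 to 982 RPKM) stands above Plau in all 4 samples, and at 3 weeks Plau (426 to 764 RPKM) stands above Serpinb2 in all 4.

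Serpine2 (protease nexin 1, chr1:79794197-79861180), a cell-surface inhibitor of thrombin and urokinase, was also higher after 3 weeks. Its RPKM values came to 1.86, 1.41, 2.10 and 1.07 at 1 week and 2.30, 2.89, 3.98 and 4.33 at 3 weeks. The groups came close to each other without overlap, and the log2 fold change was 1.24 ± 0.28 (edgeR, adjusted p = 0.00926). The call was lost when the numbers in the names of the sample tables, 3 of which occur at both times, served as a block in 6 samples (0.99, adjusted p = 0.0916). Serpini1 (neuroserpin, chr3:75557547-75643495), known as a tPA inhibitor of neurons, was near the limit of detection at 1 week with 3, 1, 2 and 2 reads and had 49, 44, 127 and 11 reads at 3 weeks. Its log2 fold change was 5.07 ± 0.83 (edgeR, adjusted p = 0.00223), and 4.18 without 3-week replicate 3 (adjusted p = 0.00187). Since it had enough reads in the 3-week group only, it entered the test through the group in which it was high, and its size depended on the method, with 2.04 by limma on log2(RPKM + 0.1) and 3.79 with the block by table number. Pooled over the samples, the reads were 8 against 231, a ratio of 31.3 after scaling to depth (exact 95% interval 15.6 to 73.3, counting error only). Even so, its mean level at 3 weeks was 0.473 ± 0.411 RPKM, under that of Serpine2.

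**Figure D3:**
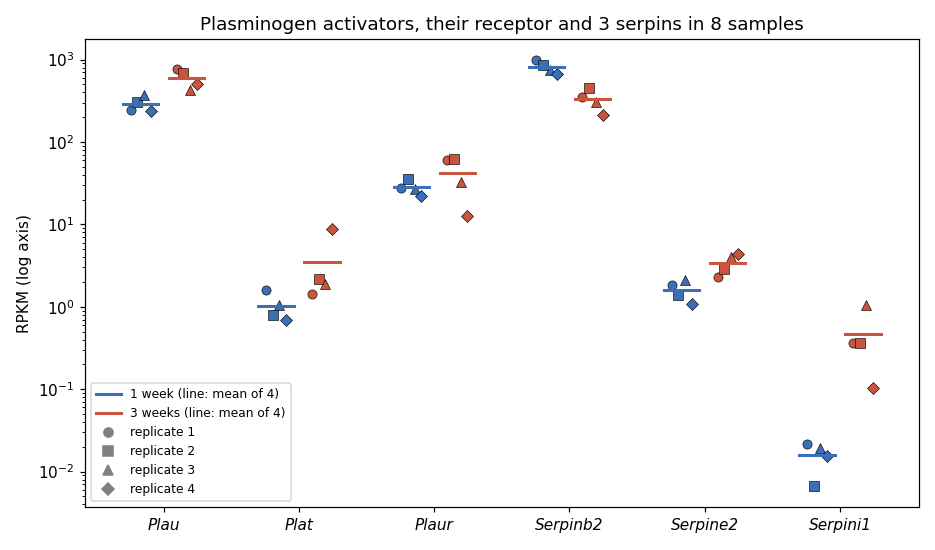
RPKM on a log axis for the plasminogen activators, their receptor and 3 serpins, with a point for each of the 4 replicates at 1 week (blue) and 3 weeks (red) and a line at each mean. Plau, Serpine2 and Serpini1 lie higher and Serpinb2 lower at 3 weeks with no overlap, whereas Plaur and Plat overlap between the times.

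The plasma-type inhibitors of the same system were close to absent. Serpina5 (protein C inhibitor) had at most 1 read in a sample and Serpinf2 (antiplasmin, the main inhibitor of plasmin) at most 2 reads. Serpine3 of clade E had 0 reads in all 8 samples, which allows up to 3 reads in a sample.

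Of the other clade B genes of chromosome 1, Serpinb5 was the most abundant. Serpinb5 (maspin), which has no known protease target, was measured at 142, 111, 160 and 155 RPKM at 1 week and at 115, 130, 120 and 85.8 RPKM at 3 weeks (log2 fold change -0.16, edgeR adjusted p = 0.540). Serpinb8, an inhibitor of the proprotein convertase furin, was measured at 9.09, 6.51, 8.88 and 8.70 RPKM at 1 week and at 6.41, 8.06, 7.58 and 24.8 RPKM at 3 weeks. Replicates 1 to 3 at 3 weeks lay within or just under the 1-week range and replicate 4 lay far above it. For Serpinb8 the log2 fold change was 0.64 ± 0.40 (edgeR, adjusted p = 0.249), and 0.01 without that sample. The same sample set the level of Serpinb11, with values of 2.43, 0.977, 6.12 and 5.34 RPKM at 1 week and 2.38, 6.12, 5.51 and 48.1 RPKM at 3 weeks (2.19 ± 0.94, edgeR adjusted p = 0.103, and 0.53 with adjusted p = 0.515 without it). Serpinb7, whose loss causes a palmoplantar keratosis in humans, was measured at 0.403, 0.298, 0.570 and 0.666 RPKM at 1 week and at 0.384, 0.684, 1.03 and 2.78 RPKM at 3 weeks. Replicate 4 was again the highest of the 3-week samples. For Serpinb7 the log2 fold change was 1.48 ± 0.59 (edgeR, adjusted p = 0.0834), 0.74 without 3-week replicate 4 (adjusted p = 0.230) and 1.78 without 3-week replicate 1 (adjusted p = 0.0378).

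Several clade B genes known from upper epidermal layers had few or no reads. Serpinb12 had 2, 0, 10 and 20 reads at 1 week and 1, 1, 1 and 0 reads at 3 weeks, too few to be tested. Serpinb13, a cathepsin inhibitor of stratified epithelia, and Serpinb3d had 0 reads in all samples, and Serpinb3a, of the family of the squamous cell carcinoma antigens, had at most 7 reads. Thus 5 of the 11 clade B genes of chromosome 1 were tested. A further gene of that cluster, Serpinb10, is annotated as a polymorphic pseudogene and is not counted among the 63. It overlaps Serpinb2 on the same strand (chr1:107529003-107549271), so that reads of the pair may not be fully separated, and its RPKM fell as well, from 6.08, 4.97, 5.63 and 9.49 to 0.246, 0.523, 0.680 and 0.390 (log2 fold change -3.65 ± 0.36, edgeR adjusted p = 0.000363).

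The 15 clade B genes of chromosome 13, which in the mouse include expanded families related to Serpinb1, Serpinb6 and Serpinb9, held 3 of the 9 changed genes, out of 7 that were tested (42.9%, beside 32.8% of all tested genes). Serpinb9b (chr13:33027416-33041884) was measured at 0.909, 0.681, 0.603 and 0.355 RPKM at 1 week and at 5.56, 4.78, 3.14 and 2.32 RPKM at 3 weeks. All 3-week samples lay above all 1-week samples, with a log2 fold change of 2.78 ± 0.36 or 6.87-fold (edgeR, adjusted p = 0.000764). It overlaps the predicted gene Gm36099 on the opposite strand, and no source used here says that reads were counted by strand. Serpinb6b (chr13:32965209-32979067) had values of 0.395, 0.472, 0.708 and 0.251 RPKM at 1 week and 1.73, 2.50, 2.15 and 1.35 RPKM at 3 weeks. It rose without overlap, with a log2 fold change of 2.26 ± 0.35 or 4.80-fold (edgeR, adjusted p = 0.00177). The reads of Serpinb6b numbered 17, 22, 23 and 10 at 1 week and 73, 93, 80 and 45 at 3 weeks. Not every 1-week sample had enough reads, so that the 3-week group, in which Serpinb6b was high, brought it into the test.

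Its relative Serpinb6c (chr13:33879816-33905708) fell by more than any other tested member. The RPKM values came to 5.44, 3.00, 6.06 and 7.46 at 1 week and 0.193, 0.569, 0.613 and 0.538 at 3 weeks, without overlap. The reads numbered 144, 86, 121 and 183 at 1 week and 5, 13, 14 and 11 at 3 weeks. Not every 3-week sample had enough reads, so that the 1-week group, in which Serpinb6c was high, brought it into the test. The log2 fold change was -3.35 ± 0.42, a 10.2-fold fall (edgeR, adjusted p = 0.000706). Serpinb6a, which corresponds to the human cathepsin G inhibitor SERPINB6 and supplied most of the RNA of this cluster, stayed between 60.9 and 67.7 RPKM at 1 week and was measured at 66.1, 73.6, 81.5 and 45.4 RPKM at 3 weeks (log2 fold change 0.22, edgeR adjusted p = 0.437). It overlaps genes on the opposite strand, among them Nqo2 and Ripk1.

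The remaining tested genes of the cluster did not pass the test. Serpinb9, an inhibitor of granzyme B, had 1-week values of 0.758 to 1.03 RPKM and 3-week values of 0.952 to 1.34 RPKM (log2 fold change 0.47, edgeR adjusted p = 0.145). Serpinb1a, an inhibitor of neutrophil proteases, was measured at 3.12, 2.34, 2.81 and 2.49 RPKM at 1 week and at 1.28, 1.74, 1.14 and 2.78 RPKM at 3 weeks. Replicates 1 to 3 at 3 weeks lay under all 1-week samples and replicate 4 within their range. For Serpinb1a the log2 fold change was -0.49 (edgeR, adjusted p = 0.201), and -0.78 without 3-week replicate 4 (adjusted p = 0.0205). Serpinb1b had 1-week values of 0.589 to 1.64 RPKM and 3-week values of 0.389 to 1.48 RPKM (log2 fold change 0.33, edgeR adjusted p = 0.640, and 0.61 with adjusted p = 0.255 without 3-week replicate 4).

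**Figure D4:**
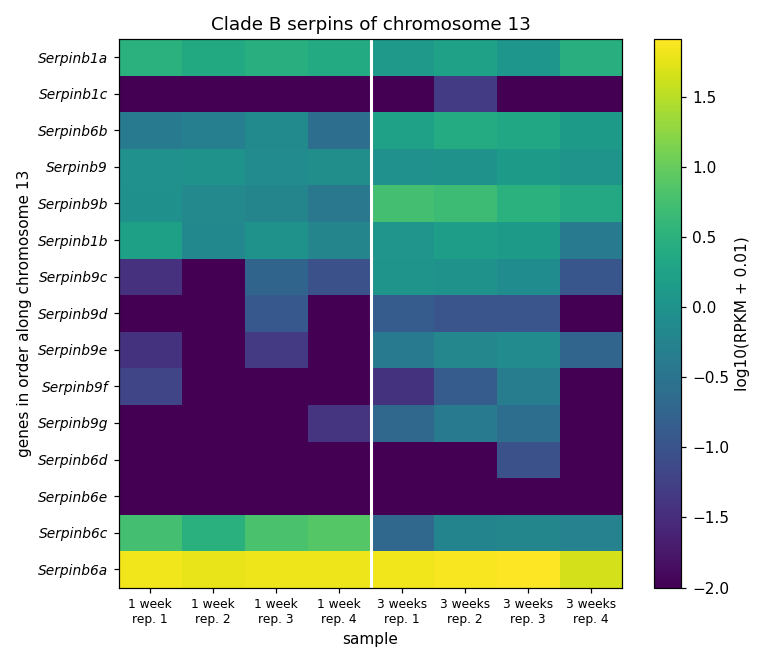
RPKM of the 15 clade B serpins of chromosome 13 in gene order, as log10(RPKM + 0.01), in the 8 samples. Serpinb6a is high in every sample, Serpinb6c is lower and Serpinb6b and Serpinb9b are higher at 3 weeks, and Serpinb9c, Serpinb9e and Serpinb9g are near the floor at 1 week and brighter in replicates 1 to 3 at 3 weeks.

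On the far side of Serpinb1b from Serpinb9b lie the paralogs Serpinb9c to Serpinb9g, which had too few reads for the main test. Serpinb9c had 1, 0, 5 and 3 reads at 1 week and 39, 33, 26 and 3 reads at 3 weeks. Serpinb9e had 1, 0, 1 and 0 reads at 1 week and 14, 20, 24 and 5 reads at 3 weeks. Serpinb9g had 0, 0, 0 and 1 reads against 7, 12, 8 and 0 reads. In all 3 genes the reads of 3-week replicates 1 to 3 exceeded those of every 1-week sample, and replicate 4 was the lowest of the 3-week samples. Over the pooled samples and scaled to depth, the ratio was 12.2 for Serpinb9c (9 against 101 reads, exact 95% interval 6.15 to 27.3), 34.1 for Serpinb9e (2 against 63 reads, 9.06 to 288) and 29.2 for Serpinb9g (1 against 27 reads, 4.82 to 1197), intervals that cover counting error only. On unique reads alone the ratio was 28.7 for Serpinb9e (2 against 53 reads, 7.56 to 243). For Serpinb9g it was 15.2 (1 against 14 reads, 2.31 to 641), and for Serpinb9c all reads were unique. When no filter on low counts was applied, these 3 genes passed the test (edgeR, adjusted p = 0.0130, 0.00180 and 0.0233), among 21763 genes of which 18.3% were called, 7.86% as higher and 10.5% as lower. Serpinb9f had 2, 0, 0 and 0 reads against 1, 4, 14 and 0 reads and did not pass in that fit (edgeR, adjusted p = 0.127).

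The promoter sequences of Serpinb9b and of these paralogs except Serpinb9d are shown because they tell which are near copies in this stretch. Each is the 150 bases before the RefSeq start (GRCm38.p6), from chr13:33027264-33027413 (+) for Serpinb9b, chr13:33159755-33159904 (−) for Serpinb9c, chr13:33249458-33249607 (+) for Serpinb9e, chr13:33323927-33324076 (+) for Serpinb9f and chr13:33484640-33484789 (+) for Serpinb9g, and capitals mark TGACGTC, the larger part of a cAMP response element.
Serpinb9b: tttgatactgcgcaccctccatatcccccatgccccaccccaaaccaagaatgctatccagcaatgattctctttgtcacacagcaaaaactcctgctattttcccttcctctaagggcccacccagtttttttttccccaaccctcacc
Serpinb9c: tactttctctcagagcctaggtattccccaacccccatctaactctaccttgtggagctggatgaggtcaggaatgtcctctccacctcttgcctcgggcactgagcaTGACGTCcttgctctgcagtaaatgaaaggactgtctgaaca
Serpinb9e: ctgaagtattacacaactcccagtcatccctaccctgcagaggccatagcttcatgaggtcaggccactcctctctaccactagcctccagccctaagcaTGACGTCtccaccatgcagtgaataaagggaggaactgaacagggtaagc
Serpinb9f: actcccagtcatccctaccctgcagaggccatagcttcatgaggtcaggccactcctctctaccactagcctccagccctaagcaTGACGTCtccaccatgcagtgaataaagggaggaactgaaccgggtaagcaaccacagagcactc
Serpinb9g: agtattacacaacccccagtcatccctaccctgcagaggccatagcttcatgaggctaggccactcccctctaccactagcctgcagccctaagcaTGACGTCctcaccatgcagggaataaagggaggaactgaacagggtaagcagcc
Over 300-base windows the promoters of Serpinb9e and Serpinb9f were 99.3% identical over 285 aligned bases, those of Serpinb9e and Serpinb9g 95.9% over 296 and those of Serpinb9f and Serpinb9g 95.8% over 289. Serpinb9c shared 70.3% to 72.0% with these 3, and Serpinb9b gave no alignment with the others longer than 14 bases. TGACGTC, searched on both strands of the 150-base window, occurred in Serpinb9c, Serpinb9e, Serpinb9f and Serpinb9g and in no other of the 53 members with a promoter, against 2.33% of all RefSeq promoters. As Serpinb9e, Serpinb9f and Serpinb9g are near copies here, their matches are not separate observations. The full element TGACGTCA occurred in none of the 53, against 1.36% of all RefSeq promoters. These matches too describe the letters and are not evidence of a bound factor. Parts of the transcripts, on which the separation of reads depends, were shared as well. Of the 59-base windows of the transcript, as long as the reads, 74.3% of Serpinb9f, 50.5% of Serpinb9g, 24.8% of Serpinb9d, 23.6% of Serpinb9e and 18.5% of Serpinb9c also occurred in another gene, compared with 4.7% of Serpinb9b. The predicted gene Gm11397 was among those sharing windows with Serpinb9e, Serpinb9f and Serpinb9g, and Gm11385 shared those of Serpinb9c. Of the reads, 42.9% of those of Serpinb9f, 53.6% of those of Serpinb9g and 84.6% of those of Serpinb9e were unique, against 100% of those of Serpinb9c. The split of reads among Serpinb9e, Serpinb9f, Serpinb9g and the genes sharing their windows is uncertain.

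Clade A, the clade of the plasma serpins, was poorly represented, with 3 of its 24 genes tested and 7 at 0 reads in all samples. All 3 belong to the Serpina3 family, the mouse relatives of antichymotrypsin, which lies on chromosome 12. Serpina3i (chr12:104263122-104269372) fell from 1.46, 1.35, 1.19 and 0.994 RPKM at 1 week to 0.314, 0.192, 0.575 and 0.337 RPKM at 3 weeks, without overlap (log2 fold change -1.63 ± 0.37, edgeR adjusted p = 0.00947). Of its reads 85.0% were unique. They numbered 62, 62, 38 and 39 at 1 week and 13, 7, 21 and 11 at 3 weeks. Not every 3-week sample had enough reads, so that the 1-week group, in which Serpina3i was high, brought it into the test. Serpina3g was measured at 0.624, 0.692, 1.56 and 0.350 RPKM at 1 week and between 0.323 and 0.636 RPKM at 3 weeks (-0.61, edgeR adjusted p = 0.348). Serpina3n, an acute-phase gene, ranged from 0.776 to 0.911 RPKM at 1 week and was measured at 0.676, 0.884, 0.944 and 2.28 RPKM at 3 weeks (0.60, edgeR adjusted p = 0.249). The highest value was again that of 3-week replicate 4, without which the log2 fold change was 0.13 (adjusted p = 0.719).

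Among the clades with few genes, Serpinh1 (HSP47, a collagen chaperone that inhibits no protease) was the second most abundant of the serpins reported at 1 week. It was measured at 224, 241, 213 and 179 RPKM at 1 week and at 251, 249, 273 and 162 RPKM at 3 weeks, so that the groups overlapped. The log2 fold change was 0.30 (edgeR, adjusted p = 0.289), and 0.46 without 3-week replicate 4 (adjusted p = 0.0373). Serpinf1, the gene for the anti-angiogenic factor PEDF, had 1-week values of 0.601 to 1.17 RPKM and 3-week values of 0.336 to 0.635 RPKM (-0.65, edgeR adjusted p = 0.149). Serping1, the C1 inhibitor of complement, had between 3 and 16 reads in a sample. Serpinc1 (antithrombin) had up to 12 reads in a sample, with 24.3% of its reads unique, and it shares transcript windows with Zbtb37.

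In total 41 of the 63 genes were not tested, and their highest count in any sample was 39 reads. Of these 28 had at least 1 read somewhere, and in 15 of the 28 no sample exceeded 5 reads. The other 13 had 0 reads in all 8 samples and are taken as not expressed within the limit that a count of 0 allows. They were the clade A genes Serpina1a, Serpina1c and Serpina1f of the antitrypsin family, Serpina3a, Serpina3j, Serpina6 (corticosteroid-binding globulin) and Serpina10, the clade B genes Serpinb3d, Serpinb6e and Serpinb13, and Serpind1 (heparin cofactor II), Serpine3 and Serpini2. Between 32 and 36 members had a read in a 1-week sample and between 37 and 40 in a 3-week sample. The antitrypsin genes Serpina1b, Serpina1d and Serpina1e had at most 2, 4 and 3 reads, in each case in 3-week replicate 4, and had 0 or 1 reads in every other sample. Serpina7 (thyroxine-binding globulin), Serpina12, Serpina16, Serpinb1c and Serpinb3c had 1 read in a single sample, and Serpinb6d had 2 reads in a single sample. In the Serpina3 family, Serpina3m had 3 to 15 reads, Serpina3f 0 to 8, Serpina3b 0 to 6, Serpina3k 0 to 3 and Serpina3c 0 or 1, and Serpinb3b had 1 to 5 reads. Serpinb9d had 0 to 2 reads at 1 week and 0 to 3 reads at 3 weeks. Serpina11 had 1, 1, 11 and 14 reads at 1 week and 1 read in each 3-week sample. Serpina9 had 6 to 11 reads at 1 week and 2 to 8 reads at 3 weeks.

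Summed over the 60 serpins reported, the RPKM was 1447, 1286, 1226 and 1100.3 at 1 week and 809, 941, 811 and 597 at 3 weeks, with no overlap. Serpinb2 alone supplied between 60.8% and 67.9% of it at 1 week and between 35.1% and 48.2% at 3 weeks. Serpinb2, Serpinh1, Serpinb5 and Serpinb6a together supplied 97.0% to 98.3% at 1 week and 84.2% to 96.7% at 3 weeks, the lowest share being that of 3-week replicate 4.

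This sample departed from the other 3-week samples in both directions. Of the 22 tested genes it was the highest of the 4 in 8 and the lowest in 10, and 9 genes lay more than 2-fold from the mean of the other 3 samples. The ratio to that mean was 10.3 in Serpinb11, 4.77 in Plat, 3.99 in Serpinb7, 3.38 in Serpinb8 and 2.73 in Serpina3n. It was 0.245 in Plaur, 0.297 in Serpinb1b and 0.172 in Serpini1. Without it 14 members passed the test among 25 with enough reads (36.5% of all genes tested in that fit, 17.8% as higher and 18.7% as lower), the additional ones being Plaur, Serpinh1, Serpinb1a, Serpinb9c and Serpinb9e. Of these, Serpinb9c and Serpinb9e had not been tested before and entered through the 3-week group in which they were high. Plaur, Serpinh1 and Serpinb1a passed in no other fit that left out a sample. Replicate 4 was singled out from these same values, so that the calls made without it are not separate support. The summed RPKM of 8 fibroblast markers was between 3.70 and 6.69 at 1 week and between 5.61 and 15.5 at 3 weeks, the highest value being that of this sample. Its sum came mostly from Postn (9.58 RPKM) and Col1a1 (3.34 RPKM), whereas Dcn (0.257 RPKM) and Col3a1 (0.312 RPKM) were at their lowest of the 8 samples in it. Of the 8 genes only Postn passed the test, and their median log2 fold change was -0.21. The sum of 5 suprabasal KC markers was 3.96 to 26.7 RPKM at 1 week and 3.86 to 13.6 RPKM at 3 weeks, again highest in this sample among the 3-week samples. That of 5 leukocyte markers was 14.8 to 20.3 and 7.14 to 13.2 RPKM, with this sample again the highest at 3 weeks, and came mostly from Cd68 (13.7 to 19.5 and 5.09 to 12.5 RPKM, edgeR adjusted p = 0.0180), while Cd207 had 0 reads and Ptprc at most 0.0315 RPKM. That of 5 melanocyte markers was 3.54 to 21.2 and 1.64 to 5.92 RPKM. The 8 KC markers summed to between 12669 and 14729 RPKM at 1 week and between 7693 and 8914 RPKM at 3 weeks, with this sample the highest at 3 weeks. Their sum was thus lower after 3 weeks without overlap, while the markers of the labelled cell type were abundant at both times. Of these 8 genes 1 was called higher and 2 lower (37.5%, beside 32.8% of all tested genes), with a median log2 fold change of 0.08. The part of these markers in the results above was not tested.

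**Figure D5:**
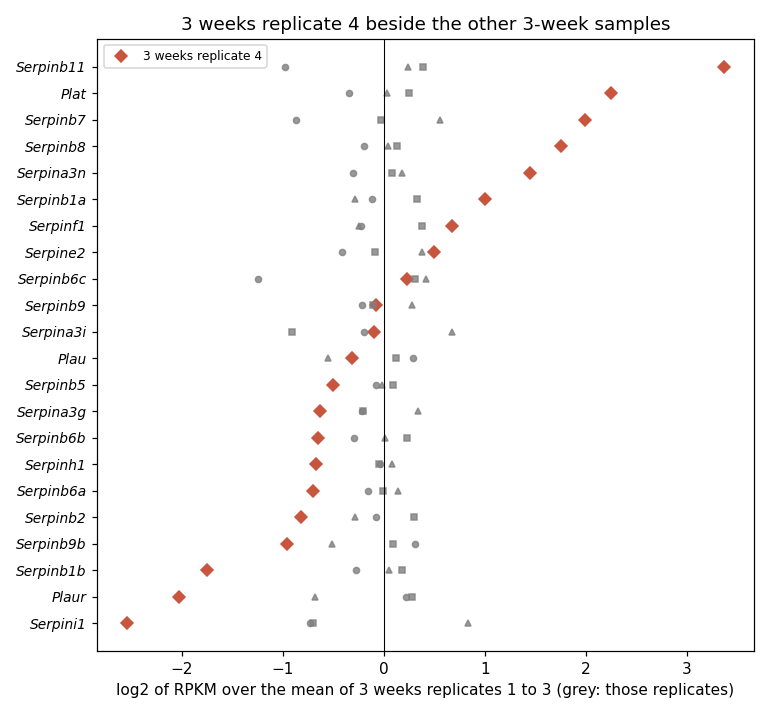
Log2 of the RPKM of each 3-week sample over the mean of 3-week replicates 1 to 3 (horizontal axis) for the 22 tested genes, with replicate 4 in red and the others in grey. Replicate 4 lies furthest to the right in Serpinb11 (10.3-fold) and furthest to the left in Serpini1 (0.172-fold).

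The other genes of the plasmin system were read from a list of 34 receptors, substrates, coagulation and clearance genes. Of the 26 tested, 7 were higher and 1 was lower after 3 weeks, with a median log2 fold change of 0.21. Plg, the gene for plasminogen itself, which is made mainly in the liver, had 0, 2, 1 and 0 reads at 1 week and 0, 0, 0 and 1 reads at 3 weeks, and Vtn, the gene for the adhesive protein vitronectin, had 0 reads. Thbs1, an adhesive matrix protein that binds plasminogen, rose from 196 ± 55.5 to 944 ± 486 RPKM (log2 fold change 2.40, edgeR adjusted p = 0.00240). F3 (tissue factor), which starts coagulation, rose from 126 ± 33.1 to 366 ± 175 RPKM (1.70, edgeR adjusted p = 0.00764). The integrin subunits Itga5, Itgav and Itgb1, members of receptors for fibronectin and vitronectin, rose by 1.74, 1.05 and 0.79 on the log2 scale (edgeR, adjusted p = 0.00563, 0.00498 and 0.00698). The endocytic receptor Sorl1 passed with 1.45 (edgeR, adjusted p = 0.0400) and lost the call when any 1-week sample or 3-week replicate 1 was left out, with adjusted p-values up to 0.112. Without 3-week replicate 4 its log2 fold change was 0.75 (adjusted p = 0.0387). The lower gene was F2rl1 (the protease-activated receptor PAR2), with a log2 fold change of -1.04 (edgeR, adjusted p = 0.0342), whose call was lost without 1-week replicate 3 or 4 or 3-week replicate 1, with adjusted p-values up to 0.0900.

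Of 27 proteases that serpins are known to inhibit, 16 were tested, of which 2 were higher and 1 was lower, with a median log2 fold change of 0.12. Klk7, a kallikrein of the cornified layer that cleaves corneodesmosomes, had 9.01, 5.05, 74.5 and 134 RPKM at 1 week and 0.991, 1.32, 1.90 and 0.503 RPKM at 3 weeks (-5.37 ± 1.10, edgeR adjusted p = 0.00613). It fell without overlap although the 1-week samples differed widely, and the log2 fold change was -4.44 without 1-week replicate 4 and -4.31 with the replicate block, with adjusted p-values of 0.0144 and 0.0242 in edgeR. The transmembrane protease gene Tmprss2 rose from 1.18 ± 0.632 to 4.39 ± 0.946 RPKM (2.06, edgeR adjusted p = 0.00413). Htra1 passed as well (1.01, edgeR adjusted p = 0.0122), but only 24.8% of its reads were unique. Elane (neutrophil elastase), F2 (prothrombin), F10 and F12 had 0 reads in all samples.

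Protease inhibitors outside the serpin family numbered 20, of which 14 were tested, with 6 higher, 1 lower and a median log2 fold change of 0.84. Timp2, an inhibitor of matrix metalloproteinases, rose from 32.5 ± 8.30 to 110 ± 22.0 RPKM (1.91, edgeR adjusted p = 0.000391). Spint1 and Spint2, membrane-bound inhibitors of hepatocyte growth factor activator and matriptase, rose by 1.37 and 1.03 on the log2 scale (edgeR, adjusted p = 0.000984 and 0.00241). The cysteine protease inhibitors Cstb and Cst3 rose by 0.92 and 0.50 (edgeR, adjusted p = 0.0136 and 0.0382). The call of Cst3 was lost in 7 of 8 fits that left out a sample, and that of Cstb with the block by table number (0.57, adjusted p = 0.0746). The stefin gene Stfa3 fell by 3.40 (edgeR, adjusted p = 0.00464). Its reads numbered 19, 24, 11 and 30 at 1 week and 1, 0, 4 and 1 at 3 weeks. Since Stfa3 had enough reads in the 1-week group only, it entered the test through the group in which it was high. The size of its fall is uncertain at so few 3-week reads. Without 3-week replicate 3 its log2 fold change was -4.54. In these 3 lists the percentage of tested genes that were called was 30.8%, 18.8% and 50%, beside 32.8% over all genes.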

How the data were processed

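Poly(A) RNA from 4 samples of mouse tail KCs at 1 week and 4 at 3 weeks of culture was read as single reads of 59 cycles. The authors aligned the reads to GRCm38 in CLC Genomics Workbench version 12 at default settings and deposited, per gene, whole counts of exon reads without normalization, and RPKM values written with decimal commas. The annotation release and the use of strand are not given in the sources used here. Under R 4.3.3, edgeR 4.0.16 was applied to the total exon reads (filterByExpr, TMM, glmQLFit and glmQLFTest, Benjamini-Hochberg, threshold 0.05) over all genes, without pairing, as the study's own tests were unpaired. P-values measure the spread between these 4 and 4 samples. Standard errors came from the F statistic.

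The study describes the same batches of KCs at both times, and which samples share a batch was not given in the sources used here. Besides the main test, 18 alternatives were run. These alternatives were DESeq2 1.42.0, upper-quartile normalization, no filter, at least 10 reads in every sample, unique exon reads, total gene reads, limma 3.58.1 on log2(RPKM + 0.1) or log2(RPKM + 1), a replicate block, a block by the number in the table names, and each sample left out.

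The genes and lists were chosen with earlier results of these data known. The 63 genes reported are accounted for, and 1 further gene is not reported here. Genes named from the lists were called genes with a mean of at least 1 RPKM at either time, at most 8 a list, and Plg, and listed genes with 0 reads (Vtn, Elane, F2, F10, F12), which were chosen after their values were seen. Promoter sequences were from RefSeq (GRCm38.p6). Figures were drawn with matplotlib 3.10.9.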

Additional observations from a re-analysis of the deposited data

Results flagged for a closer look

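Within each group of 4 samples, the gap of the highest or lowest RPKM to the nearest other sample was divided by the range of the group and compared with Dixon's critical value. Of 44 groups tested (22 genes at 2 times), 6 had a sample that stood apart, and 4 of the 6 were in 3-week replicate 4, while chance would mark about 1 group in 20. In that sample the gap was 0.918 of the range for Serpinb11, with 48.1 RPKM against 2.38 to 6.12 in the others. It was 0.911 for Serpinb8 (24.8 against 6.41 to 8.06 RPKM), 0.899 for Plat (8.68 against 1.44 to 2.16 RPKM) and 0.832 for Serpina3n (2.28 against 0.676 to 0.944 RPKM). In 1-week replicate 2 it was 0.849 for Serpinb8 (6.51 against 8.70 to 9.09 RPKM) and 0.848 for Serpina3n (0.776 against 0.891 to 0.911 RPKM).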

How the results depend on the processing

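The calls of Serpini1, Serpinb9b, Serpinb6b, Plau, Serpinb6c, Serpina3i and Serpinb2 were kept, with their direction, in each of the 18 alternatives that tested them, and Serpini1, Serpina3i and Serpinb6c were not tested where every sample had to hold 10 reads. Plat was not called with the replicate block (log2 fold change 1.57, adjusted p = 0.0989), by limma (1.36, adjusted p = 0.0723, with 0.1 RPKM added and 0.93, adjusted p = 0.104, with 1) or with the block by table number in 6 samples (1.54, adjusted p = 0.157). Serpine2 was not called with that last block (0.99, edgeR adjusted p = 0.0916), in which Serpinb1b (-0.12) and Serpinb6a (-0.046) turned below 0, neither past the threshold (adjusted p = 0.856 and 0.884). Serpinb7 was called by DESeq2 (adjusted p = 0.0411). The cause was not tested in any of these cases.

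The number of called members was 9 to 14 with each sample left out. It was 14 of 25 (56%) without 3-week replicate 4, where 36.5% of all genes were called. With the replicate block it was 8 of 22 (36.4%), beside 22.8% of all genes, and with the table block 7 of 22 (31.8%), beside 24.6%. By DESeq2 it was 10 of 22 (45.5%), beside 38.8% of all genes, and with no filter 12 of 50 (24%), beside 18.3%. It was 6 of 19 (31.6%) with at least 10 reads in every sample, where 32.4% of all genes were called. Called plasmin system partners numbered 5 of 26 (19.2%) with the replicate block, beside 22.8% of all genes. They numbered 5 to 11 with each sample left out, with 5 of 26 (19.2%) without 1-week replicate 4, beside 23.7% of all genes. Called serpin target proteases numbered 5 of 16 (31.25%) by DESeq2, beside 38.8% of all genes. With each sample left out they numbered 3 to 5, with 5 of 16 (31.25%) without 3-week replicate 3. Other protease inhibitors then numbered 6 to 9, with 9 of 14 (64.3%) without 3-week replicate 4, beside 36.5% of all genes. Over all genes the calls with each sample left out ranged from 3015 of 12741 (without 1-week replicate 4) to 4861 of 12799 (without 3-week replicate 3). They were 2867 of 12590 with the replicate block. The share of all genes called thus moved between the fits as well. Samples with the same replicate number did not deviate together (correlations -0.227, -0.146, -0.146 and 0.249), so that the replicate numbers were not taken to pair them. For the table numbers 46, 49 and 90, which occur at both times, the correlations were -0.227, 0.2 and 0.249. At this depth 41 members, none above 39 reads in a sample, could not be compared in the main test.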
